A study of Drosophila melanogaster with 3 samples.

Results

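The list of Collier (Col) binding summits in Drosophila embryos held 4 summits labelled pum (pumilio) out of 559 in all. They lay on chromosome 3R (dm3), with fold enrichments between 3.43 and 7.83, and each was above the list median of 2.85. Each had a listed Col site with its centre no more than 11 bp away. These were all the summits whose label, read up to the opening bracket, was pum, and no joint label of overlapping genes contained it. The gene was chosen by values of this same list, namely its number of summits, the high fold enrichment of 1 of them and the near-complete motif at another. Those values are therefore given as a description, with no test.

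Pumilio is an RNA-binding protein that gives its name to the PUF family. It binds short elements in the untranslated ends of mRNAs and represses their translation, as first worked out for hunchback mRNA in the early Drosophila embryo. In neurons it limits the mRNA of the sodium channel gene para and is needed for the shape of the dendrites of body wall sensory neurons. In flies the COE family has no other gene than that of Col, whereas vertebrates have several EBF genes. A pair of such proteins reads a site made of mirrored arms. In embryos it is made in some neurons of the ventral nerve cord, in multidendritic sensory neurons, in dorso-lateral muscle lineages, in the head and in the lymph gland.

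The chromatin came from whole embryos of stages 13 to 14 that carried a col-lacZ reporter transgene with a consensus Col site, in the Col-IP and mock-IP alike. The Col-IP used a mix of 3 monoclonal antibodies against Col and an elution with recombinant Col protein, the mock-IP used a monoclonal antibody against the HA tag, and the labels add a library of input DNA. Each IP was sequenced as 1 library of pooled immunoprecipitations, so there is no replicate library and no summit height has an error. Whole embryos mix cells with and without Col, and a summit does not tell in which cells the DNA was bound. Read counts are not part of the list, and the depth under a summit is therefore unknown. The list gives no values for the mock-IP or the input either, and the fold enrichment is the authors' linear ratio over a background that the sources used here do not name.

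The sequences under the 4 summits are shown because the results on site match and core rest on them. They are the 15-base sites that the authors listed from a motif search of the 200 bp around each summit, copied from the paper's supplementary list on the strand given there. That strand was not checked against a genome. The in vitro sequence of EBF, the vertebrate relative of Col, served as the yardstick. It is made of the arm ATTCCC, a spacer of any 2 bases and the mirror arm GGGAAT, which gives 12 specified bases from base 2 to base 15 of a site. Bases that match it are in capitals.
pum summit 1: agcTCCCtgGtGtAc
pum summit 2: atTTCCCcaGatAgT
pum summit 3: aAacCCCaaGGGgAT
pum summit 4: aATTCCCcaGGGAAa
Numbered by rising coordinate, the sites lay at chr3R:4909114-4909128, chr3R:4953955-4953969, chr3R:4970747-4970761 and chr3R:5007185-5007199. The authors' annotation places every pum summit inside the gene, and their methods assign a summit to the gene whose intron it overlaps. Exons and introns of dm3 were not used here.

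The summits lay at positions 4909132, 4953952, 4970752 and 5007182 of chromosome 3R. From the first to the last they spanned 98050 bp, with 44820, 16800 and 36430 bp between neighbours, and no summit of another label lay among them. They lay farther apart than most neighbouring summits that share a label. Over the whole list, pum included, the median distance between neighbouring summits that share a label was 4850 bp. Of these 150 distances, 35 exceeded the shortest one at pum, the longer distances at pum among them. A summit in an intron takes the label of that gene, so such distances depend on gene length, which was not used here. Among the 13 labels with 4 or more summits, pum ranked 2 by its closest pair, after Antp (17300 bp). In the Release 6 gene table, which served for names and order alone, the protein-coding gene CG11997 and 1 long non-coding RNA gene overlap pum, and neither name stands on a summit.

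The flanks of the locus were empty over long distances. On the side of lower coordinates, the nearest summit was that of CG11741 at 4354972 (fold enrichment 2.18), 554160 bp away. On the other side it was that of Cyp12e1, a cytochrome P450 gene, at 6319872 (2.15), 1312690 bp away. Among the 130 distances between neighbouring summits of chromosome 3R, with a median of 74065 bp, these ranked 14 and 2 from the largest. The pum summits were thus the only ones listed in a stretch of 1964900 bp between these neighbours.

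Summit 3 was the highest at pum, with a fold enrichment of 7.83. It ranked 12 among the 559 summits, between CG9328 (7.85) and sli (7.51), which encodes the Slit guidance ligand. Summit 1 followed with 5.74, rank 38 in a tie of 2. Summit 4 had 3.86, rank 132, and summit 2 had 3.43, rank 183 in a tie of 3. The highest value was 2.28 times the lowest. Heights followed no order along the chromosome, since a low summit stood on either side of the highest one.

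**Figure D1:**
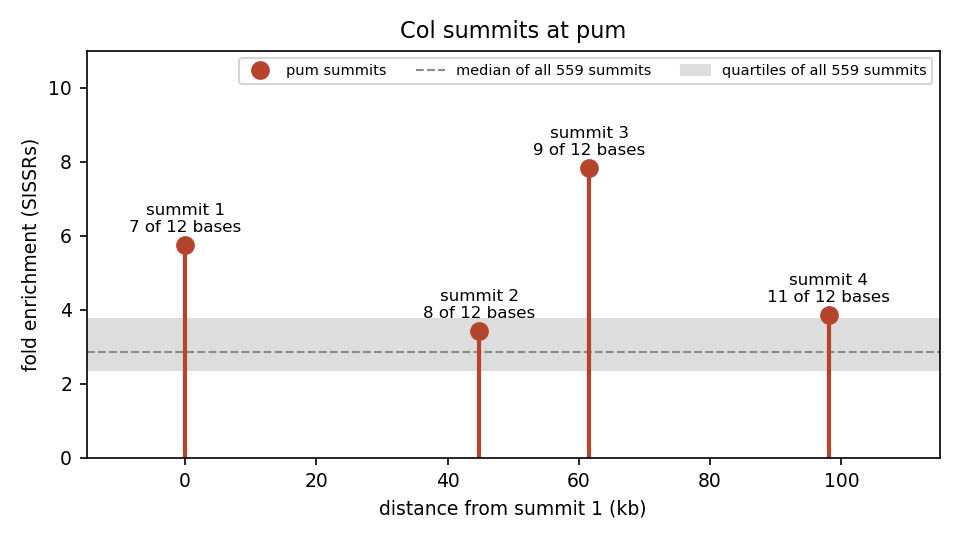
Fold enrichment (vertical axis, linear ratio, no error available) of the 4 pum summits against the distance from summit 1 (horizontal axis, kb), with the number of the 12 specified bases matched by the site of each. The dashed line and grey band give the median and quartiles of all summits; summits 1, 3 and 4 stand above the upper quartile of 3.74 and summit 2 lies below it, at 3.43.

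The median of the 4 pum summits was 4.80, against 2.85 for the 555 other summits. All 4 reached a fold enrichment of 3, as did 251 of all 559 summits (44.9%, 95% Wilson interval 40.8 to 49.0%). A value of 5 was reached by 2 of the 4 at pum and by 67 of all summits (12.0%, interval 9.55 to 14.9%). These intervals cover counting error over summits, not the variation between immunoprecipitations. Since the height of a pum summit was part of the choice of the gene, nothing is read from these counts about pum.

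Each pum summit had a listed site within 100 bp, as did 542 of the 559 summits (97.0%). The site centres lay 11 bp below summit 1, 10 bp above summit 2, 2 bp above summit 3 and 10 bp above summit 4. Summit positions were given on a grid of 10 bp, so distances of this size are at the resolution of the list. The sites of pum were thus centred on their summits, with all 4 within 25 bp, where 349 of the 542 joined sites lay (64.4%, Wilson interval 60.3 to 68.3%). Over the list the median distance was 18 bp. Among the 12 other labels with 4 or more summits, each had at least 1 site farther from its summit than the 11 bp that was the largest distance at pum. The smallest such value was 16 bp, at olf413, which differs from 11 bp by less than the grid of 10 bp. By the median distance pum (10 bp) was not the closest of these labels. CG42342 had 5.5 bp and snky 9 bp, olf413 equalled pum, and the remaining labels had larger medians. The sites were picked by the authors around these same summits, so the distance is not independent of the choice of site.

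The 4 sites differed widely in their match to the in vitro sequence. The site of summit 4 matched 11 of the 12 specified bases, with a complete left arm and 5 of 6 bases in the right one. Such a match was rare, as 13 of the 542 joined sites held 11 or 12 (2.40%, Wilson interval 1.41 to 4.06%). The near-complete motif was part of the choice of the gene, and the authors picked the sites by a motif search. Nothing is therefore read from this share about pum. The site of summit 3 matched 9 bases, 4 in the left arm and 5 in the right. At summit 2 the match was 8, with 5 on the left and 3 on the right, and at summit 1 it was 7, with 4 on the left and 3 on the right. The median of the pum sites was 8.5 and that of all joined sites was 8. At least 9 bases were matched by 2 of the 4 pum sites and by 214 of all joined sites (39.5%).

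At the core, CCCNNGGG, the pum sites fell into a complete and an incomplete pair. All 6 core bases were present at summits 3 and 4, so in 2 of the 4 pum sites, and in 231 of the 542 joined sites (42.6%, Wilson interval 38.5 to 46.8%). At summit 1 the core held 5 of 6 bases and at summit 2 it held 4. In both, CCC was intact and the loss was in GGG, of which summit 1 kept 2 bases and summit 2 kept 1. This one-sided form was common in the list: 251 joined sites (46.3%) had an intact CCC and a broken GGG, against 30 (5.54%) with the reverse. The motif search oriented the sites, so the side that is lost depends on the strand on which each was listed. A single base of GGG beside an intact CCC, as at summit 2, was found in 37 joined sites (6.83%).

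Position by position, 4 of the 12 specified bases were matched in every pum site. They were the 3 bases of CCC and the first G of the mirror arm, at positions 4, 5, 6 and 9 of the 14-base sequence. In the list these positions were matched in 100%, 90.0%, 98.9% and 79.2% of the sites. The outer bases varied more among the pum sites. The A at position 1 was present at summits 3 and 4, the T at position 2 at summits 2 and 4, and the last T, at position 14, at summits 2 and 3. The A at position 13 was present in 3 of the 4 pum sites, all but that of summit 2, and in 106 of the 542 joined sites (19.6%). Positions are numbered on the listed strand. On the opposite strand they run the other way, so that the T at position 2, present in 51.5% of the joined sites, becomes the A at position 13. With 4 sites, these counts are a description.

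**Figure D2:**
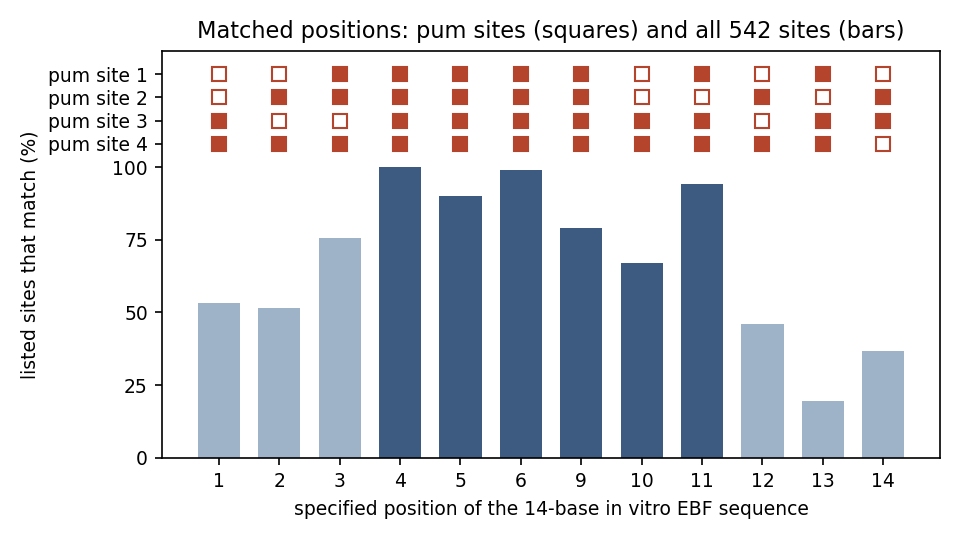
Filled squares mark the specified positions (horizontal axis, numbered along the 14-base in vitro EBF sequence, without the spacer) that are matched in the site of each pum summit, and open squares those that are not. Bars give the percent of all 542 joined sites that match (vertical axis), dark for the core; all pum squares are filled at positions 4, 5, 6 and 9, and at position 13, where the bar stands at 19.6%, 3 of 4 are.

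Height did not follow the match among the pum summits. The best site, with 11 bases, lay under the second lowest summit (3.86), and the site with the fewest, 7, lay under the second highest (5.74). Across the 542 summits with a site, the rank correlation of fold enrichment with matched bases was weakly positive (Spearman's rho 0.210), a description over summits of 1 library. Summit 4 stood at the middle of the sites with the same match: 5 of the 12 sites with 11 matched bases lay under higher summits. The median of these sites, 3.85, is set by summit 4 itself and by the next lower summit (3.84). Summit 1 stood far above its class, since 6 of the 121 sites with 7 matched bases lay under a higher summit and their median was 2.71. At summit 3 the class of 9 matched bases held 135 sites, with a median of 2.92 and 1 higher summit. For summit 2, 49 of 150 sites with 8 matched bases were under higher summits, and the median was 2.83. The medians for 7, 8 and 9 matched bases lay close to the list median of 2.85, so these places largely restate the ranks. The height of a pum summit was part of the choice of the gene, and nothing is read from these places about pum.

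**Figure D3:**
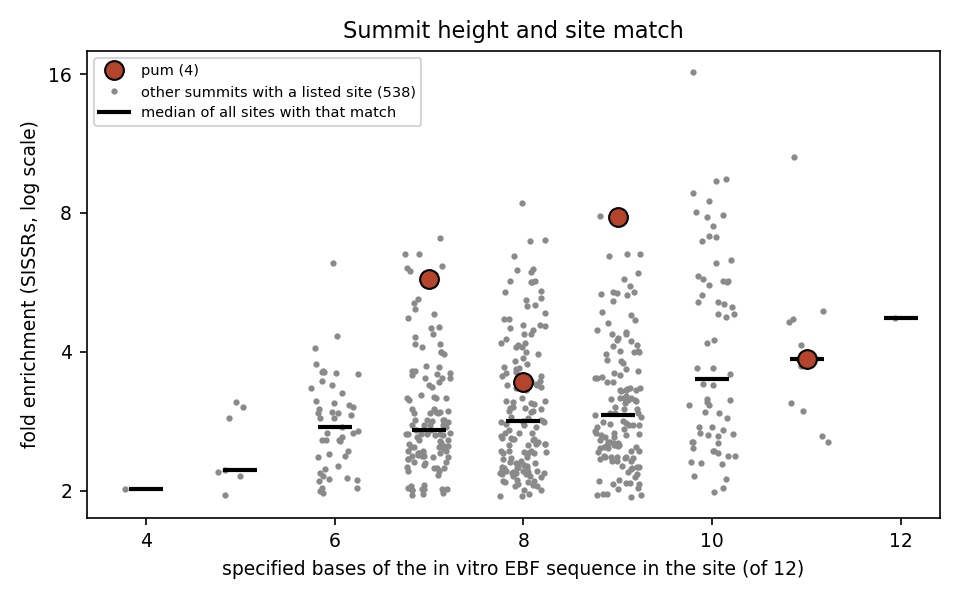
Fold enrichment (vertical axis, log scale) against the number of the 12 specified bases in the nearest listed site (horizontal axis), with the pum summits in red, other summits in grey spread sideways for legibility, and a bar for the median at each match. The pum summits with 7 and 9 matched bases lie at 5.74 and 7.83, above the medians of 2.71 and 2.92. The one with 11 lies at 3.86, beside the median of 3.85 that it helps to set. The height of a pum summit was part of the choice of the gene.

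Gene labels with 4 or more summits were few, 13 of 409 (3.18%, Wilson interval 1.87 to 5.36%), and pum was 1 of 7 with exactly 4. Within these 13 labels, pum ranked 3 by its highest summit, 2 by its median and 2 by its lowest summit, after jing in both of the last cases. It also ranked 3 by span. All summits lay above the list median at pum and at 1 of the 12 others, jing. Among the 95 labels with 2 or more summits, pum was 1 of 20 (21.1%, Wilson interval 14.1 to 30.3%) at which every summit reached a fold enrichment of 3. The number of summits and the height of a pum summit were part of the choice of the gene. Nothing is therefore read from these shares and ranks by height about pum.

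The labels with 4 summits closest to pum, by the root mean square difference of log2 fold enrichment over the 4 ranks, were jing (0.39), Antp (0.47) and CG42342 (0.62). The third place was close to a tie, since px and CG14872 also stood at 0.62. The heights at pum were 7.83, 5.74, 3.86 and 3.43. At jing, which encodes a zinc finger transcription factor, they were 6.06, 5.2, 5.17 and 4.94, a narrower range. At the Hox gene Antp they were 5.22, 4.72, 2.87 and 2.37, and at CG42342 they were 4.38, 4.37, 3.23 and 2.01. The closest pair of summits was 16800 bp apart at pum, 4500 bp at jing, 17300 bp at Antp and 5400 bp at CG42342. The median match was 8.5 bases at pum, 7.5 at jing and at Antp, and 7 at CG42342. None of the sites at jing, Antp and CG42342 matched more than 9 bases. Of the other labels with 4 summits, px and snky each had one with 10, under summits of 9.48 and 3.68. Height and the near-complete motif were part of the choice of pum, so these comparisons are a description.

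**Figure D4:**
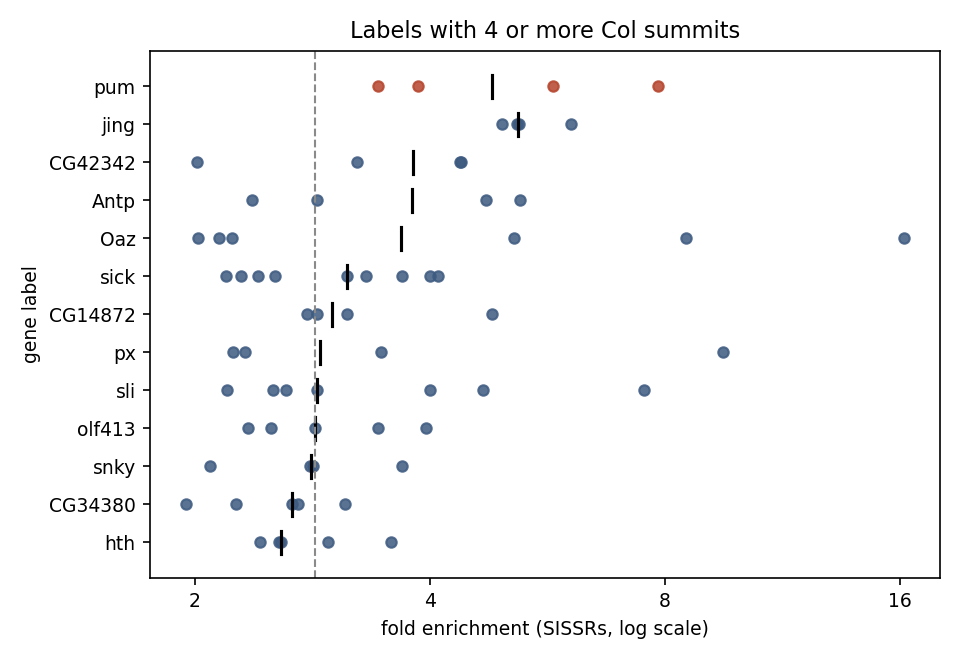
Fold enrichment (horizontal axis, log scale) of every summit (points) at the 13 labels with 4 or more summits, pum first and the others by falling median (black bars). The dashed line is the median of all summits, 2.85; all points of pum and of jing lie to the right of it, with pum between 3.43 and 7.83.

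Genes that act with Pum in repression, that encode mRNAs repressed by it or that regulate mRNAs in the same processes were also looked up in the labels. Of 36 such genes, 35 were found in the gene table, and 3 of these (8.57%) had a Col summit, beside 407 of the 13962 protein-coding genes of that table (2.92%, Wilson interval 2.65 to 3.21%). With 3 genes, nothing is read from this difference. The genes with a summit were 1 of the 7 partners found, brat, and 2 of the 19 other regulators, aret and bru-3. The partner not found in the gene table was nos, and no summit label named it. None of the 9 target genes, among them hb and para, named a summit, which at a share of 2.92% says little about a set of this size. The single summit of brat, a translational repressor that works with Pum on hunchback mRNA, had a fold enrichment of 2.38. It was therefore lower than every pum summit. Its site matched 10 bases, with 5 of the 6 core bases, and had its centre 64 bp from the summit. The summits of aret, which encodes the translational repressor Bruno, had 2.92 and 2.36, and those of its relative bru-3 had 2.85 and 1.97. All 5 lay below the lowest pum summit, as did 66.9% of all summits, and height was part of the choice of pum. A label names the gene to which a summit was assigned, so a gene without one may still be bound below the thresholds or at a site assigned to a neighbour.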

How the data were processed

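Per the labels and the paper's methods, the authors aligned single-end reads to dm3 (BDGP release 5) with Bowtie 0.12.7, removed plasmid sequence left by the elution, and called peaks on the pooled Col-IP library with SISSRs at lenient thresholds, keeping one read per coordinate. PeakAnalyzer or curation gave each summit its gene label. The deposited list holds, per summit, a 1-base position and a text with the label and the fold enrichment, a linear ratio; it has no read counts, so depth is unknown. Here labels and values were split, and each summit was joined to the nearest of the 542 listed 15-base sites with its centre within 100 bp. Matches were counted at 1 fixed register. The list holds no replicates, so no test was run; intervals are 95% Wilson intervals and cover counting error only.

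The genes named are pum, genes of the Pum list with a summit, the 3 labels with 4 summits closest in height, and the labels next in position and in rank. The labels olf413, snky, px and CG14872 were named after their values were seen. The members and lists were chosen with earlier results of these data known. Names were matched through RefSeq's Release 6 gene table, which found 409 of 414 gene names in the labels. The join and the match count were tested on simulated data. Python 3.11.15, numpy 2.4.6, pandas 2.3.3, scipy 1.17.1 and matplotlib 3.10.9 were used.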

Additional observations from a re-analysis of the deposited data

How the results depend on the processing

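The number of pum summits, their sites within 50 and 25 bp and their matched bases on the other strand or at the best register kept their values: of 23 alternative values for 11 results, 18 stayed within 1.5 times the value reported (the matched bases were equal) and 5 moved by more. Many of these 18 were fixed in advance. The in vitro sequence is its own reverse complement, so the mirrored register must give the same match. At pum the lowest summit had 3.43, the closest pair lay 16800 bp apart and the largest site distance was 11 bp. A minimum of 3, merging within 200 or 1000 bp and the shorter reaches thus could not change the counts. The 18 are therefore no measure of robustness. The highest pum summit ranked 4 among the summits of chromosome 3R alone, and pum ranked 5 among the labels by the sum of fold enrichments, against 11 by its highest summit. CCCNNGGGA, read on either strand, was found in 1 pum site, and the core with at most 1 mismatch in 3, against 2 with the exact core. By the median of labels with several summits, pum ranked 13. The span was 53230 bp without summit 1 and 61620 bp without summit 4, as fewer summits must give. No paired analysis was possible because the Col-IP and the mock-IP are 1 library each. The error of a fold enrichment cannot be given without read counts or replicate libraries.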

Other observations

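The spacer between CCC and GGG was CA at summits 2 and 4 and TG, its reverse complement, at summit 1, so 3 of the 4 pum sites had this spacer when read on either strand. It was the most frequent one in the list, with 149 of the 542 joined sites (27.5%). The spacer of summit 3, AA, came next when read on either strand (116 sites, 21.4%).

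The 15 bases of the site at summit 4 were found in 1 other listed site, at another gene, which lay under a summit with a fold enrichment of 3.84, against 3.86 at pum. The other 3 pum sites had no identical copy in the list. Between pairs of pum sites as listed, from 6 to 10 of the 15 bases were the same.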
